A study of Mus musculus with 47 samples.

Results

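The 9 genes followed here make, load or control the MHC class I complex: the heavy chains H2-K1 and H2-D1, the light chain B2m, the peptide transporter subunits Tap1 and Tap2, tapasin (Tapbp), the immunoproteasome subunits Psmb8 and Psmb9, and the regulator Nlrc5. They were found by symbol: a probe set, the unit of measurement of an Affymetrix array, was a member when its only gene symbol was 1 of the 9. This gave 26 probe sets, for 9 of the 18194 genes with such a probe set. The rule used no measured value, but the genes were chosen with earlier results of these data known.

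The study measured messenger RNA in crypts and villi of the small intestine on an Affymetrix 3' expression array, with 47 arrays in 12 groups. All mice were C57BL/6. In a genetic arm, mice aged 3 months were wild type, heterozygous for the Apc1638N allele (Apc1638N/+) or lacking p21 (p21-/-, the gene Cdkn1a), all fed Ain76A, a purified control diet. In a dietary arm, wild-type mice aged 1 year had eaten Ain76A, NWD1 or NWD2. NWD1 is a purified Western-style diet, rich in fat and poor in calcium and vitamin D, and NWD2 is its version with calcium and vitamin D raised. Each combination of tissue with genotype or diet had 4 arrays, apart from villi on NWD2 with 3. Both altered alleles are carried in every cell of the mouse. The labels do not say whether arrays of a group came from separate animals, so the p-values measure the spread between these samples.

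A class I molecule shows peptides of the cell's own proteins to CD8 T cells. The proteasome cuts the proteins, the transporter of Tap1 and Tap2 carries peptides into the endoplasmic reticulum, and tapasin bridges it to an empty heavy chain held with beta-2-microglobulin. Nlrc5 is a transactivator of class I genes that acts at a conserved promoter module of X and Y boxes. Interferon raises most of the genes followed here. In the small intestine the epithelium and the lymphocytes lying within it both express class I genes, and a bulk array cannot tell fewer cells of a type from less RNA per cell.

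The promoters of H2-K1, H2-D1, B2m and Tap1 are shown because these genes carry the main differences below or, for Tap1, because it departs from them. RefSeq promoter sequences were matched for 7 of the 9 genes, not for Tap2 or Nlrc5. Each line is the 250 bases before the start site, 5′ to 3′ on the strand of the gene, in the build GRCm38.p6. H2-K1 is at chr17:34000348-34000597 on the minus strand. H2-D1 is at chr17:35262844-35263093, B2m at chr2:122147437-122147686 and Tap1 at chr17:34187306-34187555, these 3 on the plus strand. Capitals mark matches on either strand to 4 motifs: a kappaB core GGGANTCCC, the interferon regulatory factor core AANNGAAA, the X2 core TGACG and the Y box CCAAT.
H2-K1: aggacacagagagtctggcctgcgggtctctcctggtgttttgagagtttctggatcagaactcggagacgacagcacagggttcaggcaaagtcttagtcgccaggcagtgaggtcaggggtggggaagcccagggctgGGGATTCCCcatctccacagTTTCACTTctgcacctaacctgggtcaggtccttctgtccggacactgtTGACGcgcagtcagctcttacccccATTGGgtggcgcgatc
H2-D1: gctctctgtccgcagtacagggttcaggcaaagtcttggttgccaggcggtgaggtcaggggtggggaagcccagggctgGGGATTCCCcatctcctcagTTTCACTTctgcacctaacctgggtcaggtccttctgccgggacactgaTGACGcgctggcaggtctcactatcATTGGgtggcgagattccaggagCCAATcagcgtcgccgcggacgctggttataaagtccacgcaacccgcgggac
B2m: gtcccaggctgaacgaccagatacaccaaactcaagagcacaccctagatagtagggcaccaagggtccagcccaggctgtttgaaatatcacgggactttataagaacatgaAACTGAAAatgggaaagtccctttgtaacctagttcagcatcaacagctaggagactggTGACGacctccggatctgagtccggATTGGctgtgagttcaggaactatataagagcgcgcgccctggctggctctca
Tap1: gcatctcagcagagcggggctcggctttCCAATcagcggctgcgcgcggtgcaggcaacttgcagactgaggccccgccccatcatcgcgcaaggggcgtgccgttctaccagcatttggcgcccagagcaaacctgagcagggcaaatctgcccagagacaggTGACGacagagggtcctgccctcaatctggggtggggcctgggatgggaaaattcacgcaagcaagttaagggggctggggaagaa

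The motif letters were chosen after these sequences had been seen, and a match is no evidence of binding. Searches ran over 300 bases, the 250 shown and the 50 after the start. The kappaB letters occurred in 2 of the 7 member promoters, H2-K1 and H2-D1, and in 210 of 27025 promoters of that length (0.777%). Only these letters were searched, and other forms of a kappaB site were not. The interferon regulatory factor core occurred in 3 of 7, H2-K1, H2-D1 and B2m, against 24.2% of all promoters. TGACG was found in 5 of 7 against 21% of all, and CCAAT in 6 of 7 against 37.9%. The windows of H2-K1 and H2-D1 aligned over 228 columns with 206 identical bases (90.4%). Tap1 and Psmb9 start back to back, and their windows share 275 bases on opposite strands. Of the members, 7 lie on chromosome 17 in the order Tapbp, H2-K1, Psmb9, Tap1, Psmb8, Tap2, H2-D1, with Cdkn1a before them on the same chromosome. B2m lies on chromosome 2.

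Of the 26 probe sets, 18 rose above the median of their array on at least 3 arrays and were kept, and 17 could be tested in at least 1 comparison. Of the 8 that were not kept, 2, both of Tap1, were blank on every array. Passing was not even across tissues. Nlrc5 passed through villi alone, with 0 of 24 crypt arrays and 10 of 23 villus arrays above the median, all 10 at 3 months. The H2-D1 probe set 1450170_x_at passed through 3 villus arrays, all at 3 months, and Tap2 with 7 crypt and 21 villus arrays. For Nlrc5 and 1450170_x_at the filter thus favours a difference of 3-month villi from crypts and from 1-year villi. The adjusted p-values of their called differences are therefore given from a fit with no filter on level. Those of their uncalled differences, and the fits that left out 1 array, kept the filter. The counts below describe the probe sets tested and not all members. A suffix _x_at marks a probe set whose probes can also match other transcripts, as between these heavy chains.

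Measured probe sets per array ranged from 14814 to 23355, and were fewest in p21-/- crypts (14814 to 17373). The Cdkn1a probe set 1421679_a_at was blank on all 8 p21-/- arrays and measured on every other array, while 1424638_at was measured in both genotypes, at 11.24 to 12.15 in p21-/- crypts and 11.43 to 12.96 in wild type. No Apc probe set separated Apc1638N/+ from wild type, and none was matched here to the altered part of the allele. Cell cycle markers were higher in crypts for every gene tested, from 7 of 7 in wild type to 10 of 10 on NWD2. Wild-type crypt arrays 2 and 4 lay toward villi: the mean of 3 cell cycle genes less that of 10 enterocyte genes was -3.53 and -3.88 on them, against -1.45 and -2.77 on arrays 1 and 3. NWD2 crypts lay toward villi as a group, with a mean of -3.69 and arrays from -4.64 to -2.48. The lowest crypt array was -3.36 in Apc1638N/+, -3.27 in p21-/-, -2.82 on NWD1 and -1.82 on Ain76A at 1 year.

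Villi carried more class I message than crypts. In wild type at 3 months H2-K1 was 1.97-fold lower in crypts, H2-D1 2.14-fold and B2m 2.25-fold lower, and all 3 were lower in crypts under each of the 6 genotypes and diets. Psmb8 was lower in crypts in 5 of the 6. Psmb9, another subunit of the same particle, did not pass the test in any. A probe set was called at a Benjamini-Hochberg adjusted p under 0.05 in limma, adjusted over every probe set tested in that comparison. The tested member probe sets called lower in crypts were 10 of 17 in wild type, where 27.9% of all probe sets tested were called lower. They were 12 of 16 in Apc1638N/+ (21% of all), 10 of 14 in p21-/- (22.4%), 14 of 17 on Ain76A at 1 year (30.3%), 12 of 17 on NWD1 (24.7%) and 8 of 16 on NWD2 (7.04%). None was called higher in crypts in any of the 6, where 20.4%, 21.2%, 23.3%, 26.6%, 22.3% and 8.89% of all probe sets were, in the same order. The 10 in wild type include Nlrc5 and the H2-D1 probe set 1450170_x_at, which passed the filter through villi alone. The wild-type call of 1450170_x_at was lost with blanks at a floor. Nlrc5 is also among the 12 in Apc1638N/+ and the 14 on Ain76A. With no filter on level these counts were the same, 10 of 17, 12 of 16 and 14 of 17. Of all probe sets 44.4%, 37.3% and 47.6% were then called in either direction. The NWD2 count fell to 0 without villus array 2 or 3, where 3.85% and 3.11% of all were called in either direction, and was 11 with the replicate number as a block (35% of all), which added Tap2, H2-K1 (1450534_x_at) and H2-D1 (1451683_x_at). The median log2 difference of the tested members was -0.95 in wild type against -0.14 for all probe sets, and -1.41 against -0.10 on Ain76A at 1 year.

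**Figure D1:**
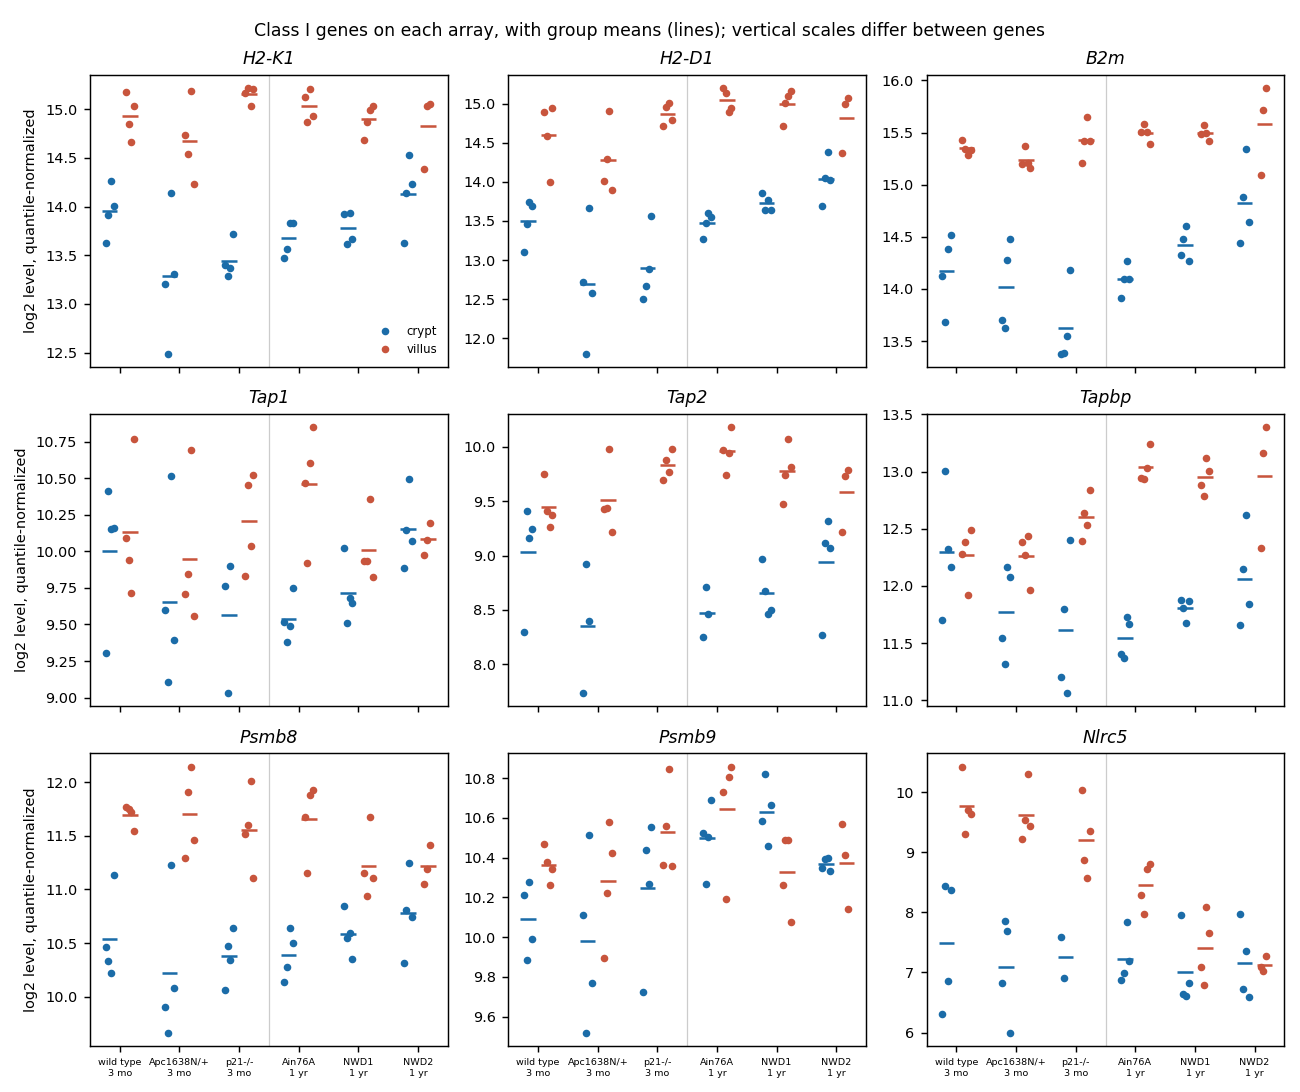
Quantile-normalized log2 level (vertical axis, scaled for each gene) of 1 probe set per gene on each array, by genotype at 3 months and diet at 1 year, with crypts in blue, villi in red and lines at group means. Every villus group mean lies above every crypt group mean for H2-K1, H2-D1, B2m, Tap2 and Psmb8, but not for Tap1, Tapbp, Psmb9 or Nlrc5.

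H2-K1 and H2-D1 encode the classical heavy chains that hold the peptide. On the H2-K1 probe set with the highest mean, 1425336_x_at, wild-type crypt arrays 1 to 4 read 13.63, 13.91, 14.26 and 14.01, and villus arrays 15.17, 14.85, 14.67 and 15.03. The ranges did not overlap, and the log2 difference of crypts from villi was -0.98 ± 0.22 (SE, n = 4 and 4, limma adjusted p = 0.000313). In p21-/- mice the crypt arrays of H2-K1 read 13.40, 13.28, 13.37 and 13.72, and the villus arrays 15.17, 15.22, 15.03 and 15.21. That difference, -1.71 ± 0.22 (limma adjusted p = 7.03e-08), was the widest of the 6 for H2-K1. On NWD2 the crypt arrays read 13.62, 14.14, 14.53 and 14.23, and the 3 villus arrays 14.39, 15.03 and 15.06. Here crypt array 3 lay above villus array 1, and the difference was -0.70 ± 0.23 (n = 4 and 3, limma adjusted p = 0.0369), the narrowest. The call on NWD2 was lost without crypt array 1, 2 or 4 or villus array 2 or 3, and with the values as deposited, at -0.38. It was also lost in a fit on the 2 groups compared. Over all conditions, 2 of 24 crypt arrays lay above the lowest of the 23 villus arrays.

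H2-D1 gave nearly the same picture on 1451784_x_at. Its wild-type crypt arrays read 13.11, 13.46, 13.74 and 13.70 and its villus arrays 14.89, 14.58, 14.00 and 14.94, a difference of -1.10 ± 0.25 (limma adjusted p = 0.000439) without overlap. In Apc1638N/+ the crypt arrays read 12.72, 11.81, 13.66 and 12.58 and the villus arrays 14.01, 14.29, 14.91 and 13.90. Arrays with the number 3 were the highest in both tissues of that genotype, and the ranges still did not overlap (-1.58 ± 0.25, limma adjusted p = 4.63e-06). The remaining differences were -1.96 in p21-/-, -1.57 on Ain76A at 1 year, -1.26 on NWD1 and -0.78 on NWD2, each called. The NWD2 call was lost without the same arrays as that of H2-K1, and also with the values as deposited (-0.44), with no filter, with blanks at a floor and with no trend.

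Not all heavy chain probe sets moved alike. The crypt-villus difference of the H2-K1 probe set 1427746_x_at was -0.92 ± 0.44 in wild type (limma adjusted p = 0.0816), -1.59 ± 0.44 in Apc1638N/+ and -1.98 ± 0.48 in p21-/-. It was -3.06 ± 0.44 on Ain76A at 1 year, -3.17 ± 0.44 on NWD1 and -1.96 ± 0.48 on NWD2. On Ain76A its crypt arrays read 10.30, 9.97, 10.90 and 10.08 and its villus arrays 13.06, 14.02, 13.38 and 13.04, far apart. In NWD2 crypts the same probe set read 10.30, 12.25, 12.91 and 11.08, so arrays 2 and 3 stood well above array 1. The H2-D1 probe set 1426324_at, which has no _x_at suffix, was called in Apc1638N/+ only (-0.81 ± 0.29, limma adjusted p = 0.0251). That call was lost without crypt array 2 or villus array 3, with blanks at a floor, in a fit on the 2 groups and with the replicate block. Of the 4 H2-K1 and 5 H2-D1 probe sets tested, the differences ran from -3.17 to -0.10, all below 0, though 1426324_at on NWD2 turned to 0.01 with the values as deposited. Which transcripts each probe set detects was not tested.

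**Figure D2:**
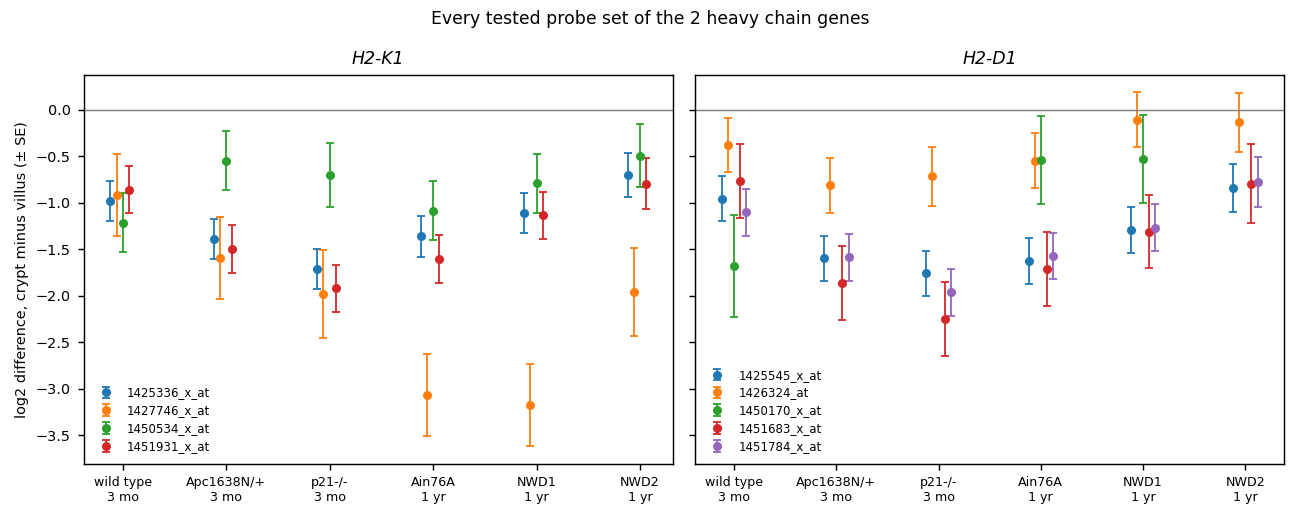
Log2 difference of crypts from villi (vertical axis, ± SE) for each tested probe set of H2-K1 (left) and H2-D1 (right) in the 6 genotypes and diets. All points lie below 0, and the H2-K1 probe set 1427746_x_at reaches -3.17 on NWD1 while the others stay above it.

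B2m is the invariant light chain without which heavy chains do not reach the cell surface. On 1449289_a_at the wild-type crypt arrays read 14.12, 13.68, 14.38 and 14.51 and the villus arrays 15.43, 15.34, 15.28 and 15.34, all above the highest crypt array. The difference was -1.17 ± 0.19 (limma adjusted p = 4.71e-06). It was -1.22 in Apc1638N/+, -1.80 in p21-/-, -1.41 on Ain76A at 1 year, -1.07 on NWD1 and -0.75 on NWD2, all called. The other B2m probe set, 1452428_a_at, was also called in all 6, from -1.68 in p21-/- to -0.75 on NWD2. Its NWD2 call was lost without crypt array 1 or 4 or villus array 2 or 3, with the values as deposited and in a fit on the 2 groups. On NWD2 the crypt arrays of 1449289_a_at read 14.44, 14.88, 15.34 and 14.64 and the villus arrays 15.09, 15.71 and 15.93, so crypt array 3 passed villus array 1. With the values as deposited, without quantile normalization, the NWD2 difference was -0.32 and was not called. This call was also lost without crypt array 1 or villus array 2 or 3, and in a fit on the 2 groups.

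Tap1 and Tap2 form the transporter that feeds peptides to the complex, and they did not behave alike on these arrays. Tap1 on 1416016_at read 9.30, 10.41, 10.15 and 10.16 in wild-type crypts and 10.09, 9.94, 9.72 and 10.76 in wild-type villi, a full overlap (-0.12 ± 0.27, limma adjusted p = 0.723). On Ain76A at 1 year its crypt arrays read 9.52, 9.38, 9.49 and 9.75 and its villus arrays 10.47, 9.92, 10.61 and 10.85, without overlap. That was the only condition in which Tap1 was called (-0.93 ± 0.27, limma adjusted p = 0.00329), and the call was lost with blanks set to a floor. Tap2 on 1453913_a_at was blank on all 4 p21-/- crypt arrays and on 6 of 24 crypt arrays in all, but on none of the villus arrays. It was lower in crypts in Apc1638N/+ (-1.16 ± 0.26, with 3 crypt arrays measured), on Ain76A (-1.49 ± 0.26, with 3) and on NWD1 (-1.12 ± 0.24), and was not called in wild type (-0.42 ± 0.24) or on NWD2 (-0.64 ± 0.26, limma adjusted p = 0.0856).

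Tapasin, the bridge between transporter and heavy chain, was lower in crypts in 4 of the 6 conditions. In wild type the crypt arrays of Tapbp (1421812_at) read 11.71, 13.01, 12.32 and 12.17 and the villus arrays 12.28, 12.38, 11.92 and 12.49, with a difference of 0.03 ± 0.25. The highest crypt value, that of array 2, lay above every wild-type villus array. Array 2 lay toward villi in its markers, yet it was the lowest wild-type crypt array on both B2m probe sets. The part of its cell content was not tested. On Ain76A at 1 year the crypt arrays read 11.40, 11.37, 11.73 and 11.66 and the villus arrays 12.95, 12.93, 13.03 and 13.24, a gap of over 1 log2 unit between the ranges. The difference was -1.50 ± 0.25 (limma adjusted p = 2.41e-06). Tapbp was also called in p21-/- (-0.98), on NWD1 (-1.14) and on NWD2 (-0.90), and not in Apc1638N/+ (-0.49, limma adjusted p = 0.107). Its NWD2 call was lost without crypt array 1 or 4 or villus array 2 or 3, and in a fit on the 2 groups.

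Psmb8 and Psmb9 replace housekeeping subunits in the immunoproteasome and favour the peptide ends that class I molecules bind. In wild type Psmb8 (1422962_a_at) read 10.47, 10.33, 10.22 and 11.13 in crypts and 11.77, 11.75, 11.72 and 11.55 in villi, without overlap (-1.16 ± 0.25, limma adjusted p = 0.000236). Its differences were -1.48 in Apc1638N/+, -1.18 in p21-/- and -1.27 on Ain76A at 1 year, all called. On NWD1 it was -0.63 (limma adjusted p = 0.0355), a call lost without crypt array 2, 3 or 4 or villus array 3, and on NWD2 -0.44 (limma adjusted p = 0.27). Psmb9 (1450696_at) read 10.21, 9.89, 10.28 and 9.99 in wild-type crypts and 10.47, 10.38, 10.26 and 10.34 in villi, a difference of -0.27 ± 0.19. Its 6 differences ran from -0.30 in Apc1638N/+ to 0.30 on NWD1, and 20 of 24 crypt arrays lay above the lowest villus array. Psmb9 shares its promoter region with Tap1, which was called in 1 condition of 6.

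**Figure D3:**
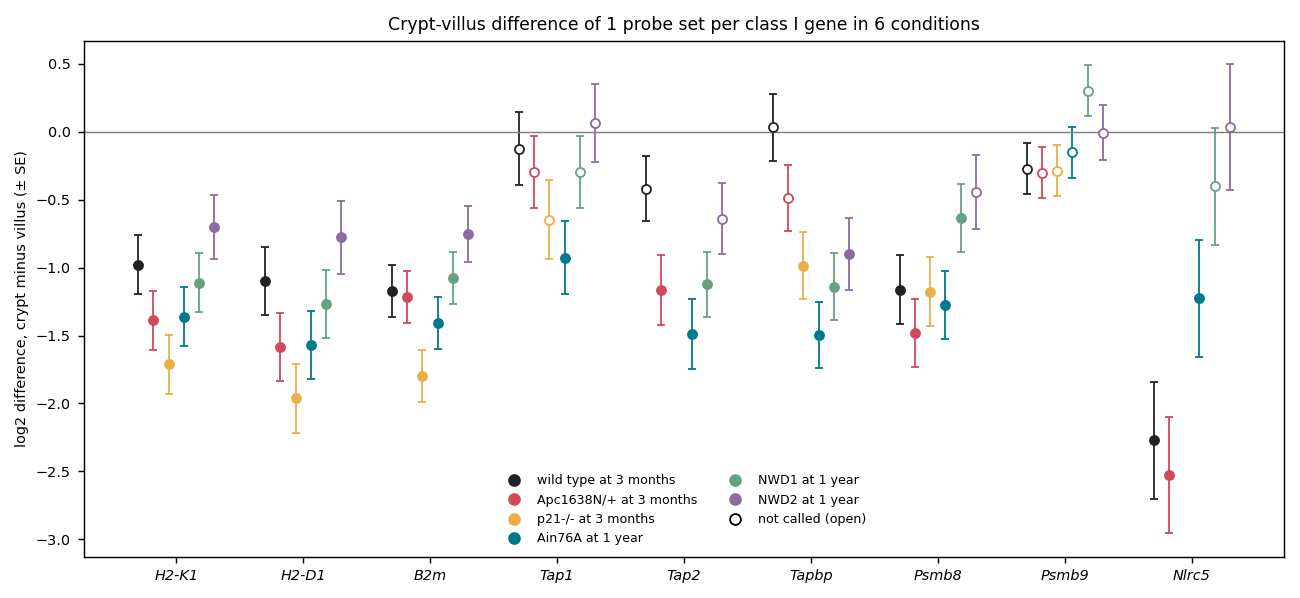
Log2 difference of crypts from villi (vertical axis, ± SE) for 1 probe set per gene in 6 genotypes and diets, filled where the adjusted p was under 0.05. H2-K1, H2-D1 and B2m are filled in all 6, Psmb9 in none, and Nlrc5 runs from -2.53 in Apc1638N/+ to 0.03 on NWD2.

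Nlrc5 is a transactivator of class I genes. It passed the filter on level through 3-month villi alone. Wild-type villus arrays read 10.42, 9.30, 9.70 and 9.64, and the crypt arrays 6.31, 8.43, 6.86 and 8.38. The 2 higher crypt values came from arrays 2 and 4, those that lay toward villi, and without them the difference was -3.18. The difference was -2.27 ± 0.43 in wild type (limma adjusted p = 3.21e-05 with no filter) and -2.53 ± 0.43 in Apc1638N/+ (limma adjusted p = 9.64e-06 with no filter). It was -1.23 ± 0.43 on Ain76A at 1 year (limma adjusted p = 0.0139 with no filter), -0.40 ± 0.43 on NWD1 and 0.03 ± 0.46 on NWD2, the last 2 not called. In p21-/- it was not tested, since 2 of the 4 crypt arrays were blank; the villus arrays read 10.04, 8.87, 8.57 and 9.35.

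In villi Nlrc5 and lymphocyte markers had the same order of group means. The Nlrc5 villus means were 9.76 in wild type, 9.62 in Apc1638N/+, 9.21 in p21-/-, 8.45 on Ain76A at 1 year, 7.41 on NWD1 and 7.13 on NWD2. The mean of 3 lymphocyte genes measured on every array was 14.37, 14.04, 13.70, 12.18, 11.29 and 10.68 in the same order, and Nlrc5 was the only member whose villus means had this order. Over the 6 villus means Pearson r was 0.99 over the 6 crypt means 0.17 and over all 12 group means 0.95; these points share arrays and are a description. For Psmb8 r over the 6 villus means was 0.86, and for B2m -0.87. Of 14 lymphocyte markers, 12 were represented, and those tested were lower in crypts for 10 of 10 in wild type, 7 of 7 in Apc1638N/+, 4 of 8 on Ain76A, 0 of 9 on NWD1 and 0 of 7 on NWD2. The part of lymphocytes in the level of Nlrc5 was not tested.

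**Figure D4:**
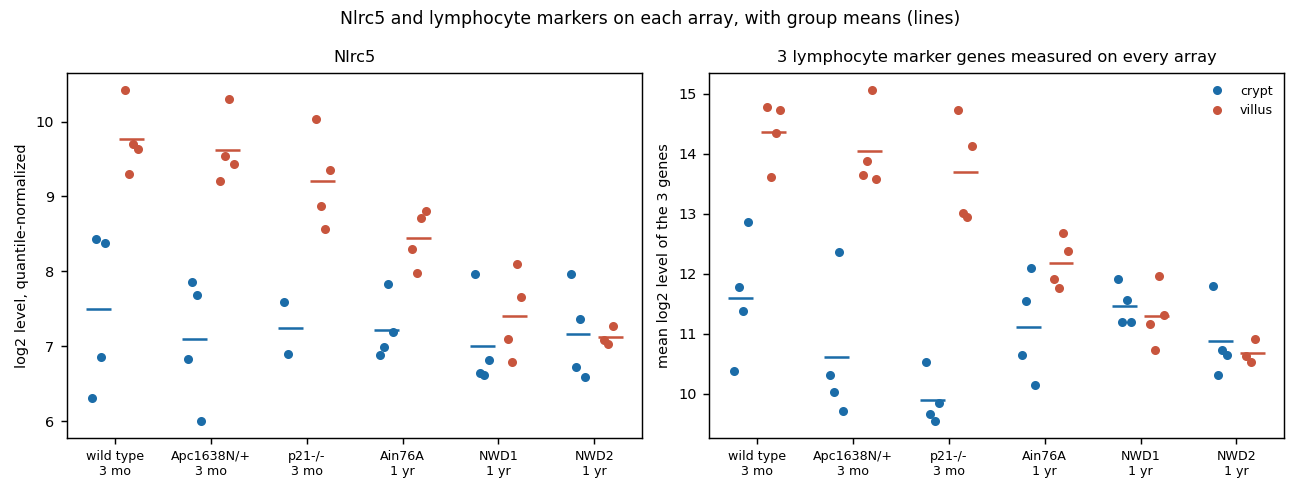
Quantile-normalized log2 level of Nlrc5 (left) and mean log2 level of 3 lymphocyte marker genes (right) on each array, by genotype at 3 months and diet at 1 year, with crypts in blue, villi in red and lines at group means. In villi every mean at 3 months lies above every mean at 1 year in both panels, from 9.76 in wild type to 7.13 on NWD2 for Nlrc5 and from 14.37 to 10.68 for the markers.

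Other genes of the pathway were taken from lists chosen with earlier results of these data known. Of the loading and trimming genes, the chaperones Calr and Canx, the oxidoreductase Pdia3, the tapasin-like Tapbpl and the peptidase Erap1, 4 of 5 were higher in crypts in wild type and 4 of 5 on Ain76A at 1 year. They ran against the members: in wild type Canx was 1.64 ± 0.26 higher on the log2 scale, Calr 0.93 ± 0.18, Erap1 0.85 ± 0.23 and Pdia3 0.95 ± 0.28. The count was 3 of 4 in Apc1638N/+, 0 of 4 in p21-/-, 1 of 5 on NWD1 and 0 of 5 on NWD2. Of the housekeeping subunits that the immunoproteasome replaces, Psmb5, Psmb6 and Psmb7, 3 of 3 were higher in crypts on Ain76A at 1 year and on NWD1. On Ain76A, Psmb6 was higher by 0.96 ± 0.15. In wild type 2 of 3 were higher, in p21-/- and on NWD2 1 of 3, and in Apc1638N/+ 0 of 3. The immunoproteasome partners Psmb10 and Psme1 were not called in any of the 6. Of all probe sets tested, 20.4% were called higher in crypts in wild type, 21.2% in Apc1638N/+ and 23.3% in p21-/-. The shares were 26.6% on Ain76A at 1 year, 22.3% on NWD1 and 8.89% on NWD2.

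Of the other class I heavy chains and class I-like genes, 6 of 19 were represented. Those lower in crypts were 2 of 5 in wild type, 1 of 3 in Apc1638N/+, 1 of 3 in p21-/-, 3 of 4 on Ain76A, 1 of 5 on NWD1 and 0 of 6 on NWD2, where Hfe was higher in crypts (0.79). H2-Q2 was lower in crypts in 5 of the 6 conditions, by -1.92 ± 0.34 in wild type and -1.36 ± 0.34 on NWD1, and was not called on NWD2 (-0.88 ± 0.37). Of the regulators, 14 of 16 were represented. Those lower in crypts were 5 of 13 in wild type, 3 of 9 in Apc1638N/+, 5 of 10 in p21-/-, 9 of 14 on Ain76A, 7 of 13 on NWD1 and 2 of 14 on NWD2. Beside both lists, 27.9%, 21%, 22.4%, 30.3%, 24.7% and 7.04% of all probe sets tested were called lower, in the same order. Jak2, a kinase of the interferon receptors, was lower in crypts in all 6, from -2.54 ± 0.23 on Ain76A to -1.18 ± 0.25 on NWD2. Stat2, which carries the interferon signal to the nucleus, was lower in each of the 5 conditions where it was tested, by -1.96 ± 0.22 in wild type. Irf8 was higher in crypts in wild type (1.28 ± 0.24) and on Ain76A at 1 year (0.71 ± 0.24).

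Whether the crypt-villus step itself differed between conditions was tested by interaction terms. Against wild type, no tested member probe set was called in Apc1638N/+ (0 of 16, where 0% of all probe sets were called, 1 at an unadjusted p under 0.05, against 7% of all) or in p21-/- (0 of 14, where 1.53% were called, 7 unadjusted against 17.6%). Against Ain76A at 1 year, none was called on NWD1 (0 of 17, where 0% were called, 0 unadjusted against 2.51%). None was called on NWD2 either (0 of 16, where 0.183% were called, 9 unadjusted against 19.4%). On NWD2 all 16 terms were above 0, that is, toward a smaller step, with a median of 0.79. For Tap1 the NWD2 term was 0.99 ± 0.39 (limma adjusted p = 0.16), for B2m 0.66 ± 0.28 (limma adjusted p = 0.188) and for Nlrc5 1.26 ± 0.63 (limma adjusted p = 0.264). In p21-/- 13 of 14 terms were below 0, toward a wider step, with a median of -0.68. In p21-/- with the values as deposited 2 were called, where 3.3% of all were.

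Between Ain76A at 1 year and wild type at 3 months, which share genotype and diet, the step differed for 3 of 17 tested member probe sets, where 10.8% of all were called. The step was wider at 1 year for Tapbp by -1.53 ± 0.35 (limma adjusted p = 0.00666), for the H2-K1 probe set 1427746_x_at by -2.15 ± 0.62 (limma adjusted p = 0.0244) and for Tap2 by -1.07 ± 0.35 (limma adjusted p = 0.0453). Age and arm of the study cannot be told apart here. Without wild-type crypt arrays 2 and 4 none of the 3 was called, at -1.24 for Tapbp, -2.12 for H2-K1 and -0.77 for Tap2. The H2-K1 term was also lost without wild-type villus array 3 or Ain76A villus array 2, and with blanks at a floor. The Tap2 term was lost in 11 of 13 fits that left out 1 array, and with no filter on level. The terms of 6 of 10 enterocyte markers were also called below 0, and their part was not tested.

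The genotypes were then compared with wild type within each tissue. No member passed the test, although most tested members had lower means in mutant crypts, 14 of 16 in Apc1638N/+ and 12 of 14 in p21-/-. In Apc1638N/+ crypts 0 of 16 tested probe sets were called, where 0.0957% of all were called, and 8 had an unadjusted p under 0.05, as had 13.3% of all. H2-D1 on 1425545_x_at read 12.48, 11.52, 13.60 and 12.65 in Apc1638N/+ crypts against 13.17, 13.53, 13.64 and 13.67 in wild type. Array 3 lay within the wild-type range and the other three lay below it (-0.94 ± 0.24, limma adjusted p = 0.0952). H2-K1 on 1425336_x_at read 13.21, 12.49, 14.14 and 13.31 against the wild-type values above (-0.67 ± 0.22, limma adjusted p = 0.164), and B2m differed by -0.16 ± 0.19. Without Apc1638N/+ crypt array 3 or wild-type crypt array 1, 5 probe sets were called, where 9.61% and 2.5% of all were. Measured probe sets ranged from 15476 to 21914 on these Apc1638N/+ arrays.

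In p21-/- crypts 0 of 14 were called, where 4.17% of all were called, and 8 had an unadjusted p under 0.05, as had 19.5% of all. B2m read 13.38, 13.39, 13.55 and 14.19 there, so only array 4 lay within the wild-type range (-0.55 ± 0.19, limma adjusted p = 0.0879). The H2-K1 probe set 1451931_x_at read 12.23, 11.50, 12.28 and 12.27 against 12.49, 12.84, 13.04 and 12.94, without overlap (-0.76 ± 0.25, limma adjusted p = 0.0765). With the values as deposited this probe set was called (-0.99 ± 0.27, limma adjusted p = 0.028), and 3 member probe sets were called without p21-/- crypt array 4, where 7.6% of all were. Lymphocyte markers were lower for 3 of the 4 tested in p21-/- crypts, and the mean of 3 of them ran from 9.54 to 10.53 against 10.38 to 12.86 in wild type. Their part in the class I values was not tested. Of the loading genes, Calr (-0.76 ± 0.18) and Erap1 (-0.83 ± 0.23) were lower in p21-/- crypts.

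No member probe set was called in Apc1638N/+ villi (0 of 17, where 0% of all were called) or in p21-/- villi (0 of 17, where 0.039% were called). Members with an unadjusted p under 0.05 were 0 in both, against 5.11% and 11.4% of all, in the same order. For H2-K1 the differences were -0.26 ± 0.22 in Apc1638N/+ and 0.23 ± 0.22 in p21-/-, for B2m -0.11 ± 0.19 and 0.08 ± 0.19, and for Psmb8 0.00 ± 0.25 and -0.14 ± 0.25. Both genotypes were compared with the same wild-type arrays.

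**Figure D5:**
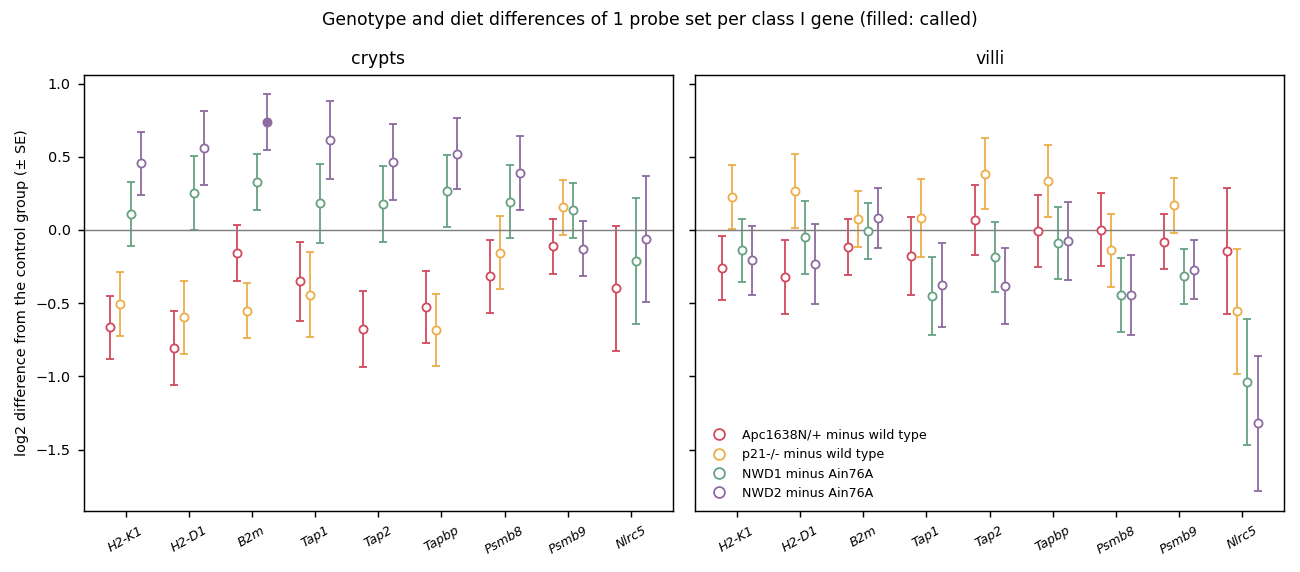
Log2 difference from the control group (vertical axis, ± SE) for 1 probe set per gene in crypts (left) and villi (right): Apc1638N/+ and p21-/- against wild type at 3 months, NWD1 and NWD2 against Ain76A at 1 year. The only filled point, an adjusted p under 0.05, is B2m in NWD2 crypts at 0.74.

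The diets were compared with Ain76A at 1 year, with the same Ain76A arrays for both. In crypts on NWD1 no member probe set was called (0 of 17, where 0% of all were called, 0 unadjusted against 3.18%). There 16 of the 17 differences were above 0, with a median of 0.16. In crypts on NWD2 1 of 17 was called, where 8.83% of all probe sets were called, and 14 of 17 differences were above 0, with a median of 0.47. The count was 5 in a fit on the 2 groups and 10 with the replicate number as a block, where 27.4% and 26.5% of all probe sets were called. Same-numbered Ain76A and NWD2 crypt arrays were not shown to be paired (r from -0.365 to 0.303), so this block rests on the label numbers alone. B2m on 1449289_a_at read 13.91, 14.09, 14.27 and 14.09 on Ain76A, 14.32, 14.48, 14.61 and 14.27 on NWD1 and 14.44, 14.88, 15.34 and 14.64 on NWD2. Every NWD2 array lay above every Ain76A array, and B2m was higher on NWD2 by 0.74 ± 0.19 (limma adjusted p = 0.0123). The call was lost without Ain76A crypt array 1 or NWD2 crypt array 3, at an adjusted p of up to 0.126 in limma. Tap1 was higher by 0.62 ± 0.27 (limma adjusted p = 0.138) and Tapbp by 0.52 ± 0.25 (limma adjusted p = 0.172), and neither passed.

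In the same NWD2 crypts 8 of 10 enterocyte markers rose and 6 of 12 cell cycle genes fell, with median log2 differences of 1.41 and -1.16. H2-Q2 (1.30 ± 0.34), Fcgrt (1.30 ± 0.30), Ifngr2 (1.28 ± 0.33), Jak2 (0.82 ± 0.23) and Ifnar2 (0.97 ± 0.31) also rose. The part of enterocyte content in the B2m value was not tested. Over all 12 group means the level of cell cycle less enterocyte genes correlated with H2-K1 at r = -0.96, with Psmb8 at -0.95, with B2m at -0.94 and with Psmb9 at -0.31, a description of arrays that share both measures. These values hold the step between tissues. Over the 6 villus means r was -0.94 for H2-K1, -0.27 for Psmb8, -0.32 for B2m and -0.90 for Psmb9, and over the 6 crypt means -0.60, -0.70, -0.62 and 0.22.

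In villi no member probe set was called on NWD1 (0 of 17, where 0.0647% of all were called) or NWD2 (0 of 16, where 0.228% were called). At an unadjusted p under 0.05 there was 1 on NWD1, against 5.11% of all, and 1 on NWD2, against 12.2%. The unadjusted member was Nlrc5 in both. It read 8.29, 7.98, 8.72 and 8.81 on Ain76A, 7.10, 6.79, 8.10 and 7.65 on NWD1 and 7.08, 7.03 and 7.27 on NWD2. Each NWD2 array lay below each Ain76A array (-1.32 ± 0.46, limma adjusted p = 0.211), and the NWD1 arrays overlapped them (-1.04 ± 0.43, limma adjusted p = 0.863). In NWD2 villi the differences of the tested heavy chain probe sets from Ain76A ran from -0.60 (H2-D1, 1426324_at) to 0.22 (H2-K1, 1427746_x_at), and those of B2m were 0.08 and -0.09.

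Ain76A at 1 year was set against wild type at 3 months in each tissue, with age and arm not separable. In crypts 1 of 17 was called, where 16% of all were called: Tapbp was lower at 1 year by -0.76 ± 0.25 (limma adjusted p = 0.0311). The Tapbp call did not hold when wild-type crypt array 2 or 3, or Ain76A crypt array 1 or 2, was left out, and the difference was -0.47 without wild-type crypt arrays 2 and 4. In the same crypts 6 of 10 enterocyte markers were lower and 5 of 11 cell cycle genes higher at 1 year, and their part was not tested. In villi 4 of 17 were called, where 16.1% of all were called. Tapbp was higher by 0.77 ± 0.25 (limma adjusted p = 0.027) and the H2-K1 probe set 1427746_x_at by 1.80 ± 0.44 (limma adjusted p = 0.00504), with villus arrays at 11.97, 11.55, 10.94 and 11.84 at 3 months and all above 13 at 1 year. Nlrc5 was lower by -1.32 ± 0.43 (limma adjusted p = 0.0287 with no filter) and the H2-D1 probe set 1450170_x_at by -1.61 ± 0.51 (limma adjusted p = 0.0252 with no filter, 3 arrays measured at 3 months). Both had passed the filter through 3-month villi alone. The Tapbp and Nlrc5 calls ended when wild-type villus array 1 or 3 was left out; that of Tapbp also without Ain76A villus array 3 or 4, and that of Nlrc5 without Ain76A villus array 1 or 2. The H2-D1 call was lost without Ain76A villus array 3 or 4, and with blanks at a floor. In the same villi 11 of 11 lymphocyte markers tested were lower at 1 year, with a median of -2.56, and 4 of 5 myeloid markers. Their part was not tested.

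Across the 12 groups the members fell into an order of levels that mostly followed tissue. For H2-K1, the highest mean was 15.16 in p21-/- villi and the lowest 13.29 in Apc1638N/+ crypts, and 2 of 11 neighbouring pairs in the order lay further apart than the larger SD of the pair. The widest gap, 0.54, separated Apc1638N/+ villi from NWD2 crypts. For B2m the order ran from 15.58 in NWD2 villi to 13.63 in p21-/- crypts with 3 such pairs, and for H2-D1 from 15.04 in villi on Ain76A at 1 year to 12.69 in Apc1638N/+ crypts with 2. Psmb8 ran from 11.70 to 10.22 with 1, Tapbp from 13.04 to 11.54 with 1, and Nlrc5 from 9.76 to 7.01 with 1. For Tap1 (10.46 to 9.53), Tap2 (9.96 to 8.35, in 11 groups) and Psmb9 (10.65 to 9.98) no neighbours lay further apart than their SD.

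Among the 6 members measured on every array, the 12 group means of H2-K1 and H2-D1 correlated at r = 0.97 and those of H2-K1 and B2m at 0.96. The 10 pairs without Psmb9 ranged from 0.73 to 0.97 and the 5 with Psmb9 from 0.25 to 0.56. The genes whose 12 group means were most like the mean profile of these 6, among 5042 other genes, were Ube2q1 (r = 0.983), Cdhr5 (0.981), Itm2b (0.980), Rab4b (0.980), Clcn2 (0.978) and Igsf23 (0.977). The correlations share arrays and tissue and carry no test.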

How the data were processed

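Messenger RNA of small intestine crypts and villi was measured on 47 arrays of 1 colour. The authors deposited 1 value per probe set and array on a log2 scale, made with GCOS per the submitters' processing notes; the reason for the blanks (55.2% of cells) and the scaling are not given in the sources used here. Of 45101 probe sets, 34945 had 1 gene symbol in the platform annotation, 932 several and 9160 none, and 64 were controls.

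Arrays were quantile-normalized on the 8404 probe sets without a blank, and blanks were kept. A probe set was kept (14919) if 3 or more arrays showed it above their median, and tested where measured on at least 3 arrays of each group. One limma model (3.58.1, R 4.3.3) with a trend held all 12 groups, and p-values were adjusted by Benjamini-Hochberg over all probe sets tested in a comparison, which was checked on simulated data. Text on a gene uses its probe set with the highest mean unless another is named, and other pathway genes are named up to 4 per list and comparison, by smallest p. The number of arrays limits precision. No 2 arrays were identical.

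Same-numbered crypt and villus arrays deviated together (every r over 0.1) on Ain76A at 1 year (0.112 to 0.294 over 4 pairs) and NWD2 (0.296 to 0.488 over 3 pairs), from the numbers in the labels. The members and lists were chosen with earlier results of these data known. Alternatives were deposited scaling, no filter, blanks at a floor (the 1st percentile of the array), no trend, a fit on 2 groups, the replicate block, each array left out, and, chosen after seeing the data, no wild-type crypt arrays 2 and 4 and 1 probe set per gene. Promoters came from RefSeq (GRCm38.p6).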

Additional observations from a re-analysis of the deposited data

Results flagged for a closer look

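Within groups of 4 arrays, 1 array stood apart from the other 3 in 6 of 174 group and probe set combinations examined (a gap over 0.829 of the range), and chance gives about 1 in 20. H2-K1 on 1451931_x_at read 11.50 on p21-/- crypt array 2 against 12.23 to 12.28 on the others. H2-D1 on 1450170_x_at read 9.83 on Apc1638N/+ villus array 3 against 7.69 to 8.01, and on 1451683_x_at it read 12.67 on the same array against 11.58 to 11.72. H2-D1 on 1451683_x_at read 10.42 on wild-type crypt array 1 against 11.44 to 11.60. B2m on 1452428_a_at read 12.83 on wild-type crypt array 2 against 13.95 to 14.15. Nlrc5 read 7.96 on NWD1 crypt array 1 against 6.61 to 6.82.

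The crypt-villus difference itself differed between Ain76A at 1 year and wild type at 3 months in limma for Tapbp (-1.53, adjusted p = 0.00666), the H2-K1 probe set 1427746_x_at (-2.15, adjusted p = 0.0244) and Tap2 (-1.07, adjusted p = 0.0453). All 3 were lost without wild-type crypt arrays 2 and 4, and age and arm cannot be told apart.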

How the results depend on the processing

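No called member difference changed sign under any alternative run. Crypt-villus counts on NWD2 fell from 8 to 2 with deposited scaling and to 4 in a fit on the 2 groups. Of all probe sets, 17.4% and 20.6% were called there in either direction. Against wild type, p21-/- crypts gained 1 call with deposited scaling and 1 with blanks at a floor, and the p21-/- interaction gained 2 and 1. Of all probe sets, 4.5% and 6.01% were called in those crypts and 3.3% and 2.62% in the interaction. NWD2 crypts had 2 calls with deposited scaling, 5 in a fit on the 2 groups and 10 with the replicate block, where 9.11%, 27.4% and 26.5% of all probe sets were called, and NWD2 villi 1 in a fit on the 2 groups. In those villi 3.1% of all probe sets were called. Ain76A crypts at 1 year against wild type had 2 with blanks at a floor, 0 in a fit on the 2 groups, 0 with the replicate block and 0 without wild-type crypt arrays 2 and 4, where the Ain76A interaction also had 0. In those crypts 10.8% of all probe sets were called with blanks at a floor, 7.08% in the fit on the 2 groups and 5.4% with the block. The causes were not tested. Apart from the pairs named above the replicate numbers were not shown to pair arrays, and the block moved no other count by over 1.5 times.

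Leaving out 1 array, crypt-villus counts ran from 9 to 11 in wild type, 11 to 12 in Apc1638N/+, 9 to 11 in p21-/-, 13 to 15 on Ain76A, 10 to 12 on NWD1 and 0 to 9 on NWD2. Of all probe sets, 42.1% to 48.7% were then called in wild type, 37.2% to 44% in Apc1638N/+ and 39.7% to 47.5% in p21-/-. On Ain76A 52.3% of all were called without crypt array 1 (14 members). On NWD1, with every array in, 22.3% of all were called higher in crypts and 24.7% lower. The shares on NWD2 without villus array 2 or 3 are given with the crypt-villus counts above. Against wild type the member counts ran from 0 to 5 in Apc1638N/+ crypts, 0 to 3 in p21-/- crypts and 0 to 0 in villi of both. Of all probe sets, 0% to 9.61% were called in Apc1638N/+ crypts and 1.03% to 7.6% in p21-/- crypts. In villi the share reached 0.0475% in Apc1638N/+ and 2% in p21-/-. Against Ain76A the member counts ran from 0 to 3 in NWD2 crypts (0 without Ain76A array 1 or NWD2 array 3, 3 without NWD2 array 1) and 0 to 0 in NWD1 crypts and in villi of both diets. Without Ain76A array 1, 3.72% of all probe sets were called in NWD2 crypts. Ain76A at 1 year against wild type gave 0 to 2 in crypts and 1 to 3 in villi (1 without wild-type villus array 1). Of all probe sets, 25.3% were called in crypts without wild-type crypt array 1 (2 members) and 4.94% without array 2 (0 members). In villi 11.6% were called without wild-type villus array 1. Interactions gave 0 to 0 for Apc1638N/+, NWD1 and NWD2, 0 to 1 for p21-/- and 1 to 3 for Ain76A against wild type. The 1 in p21-/- came without p21-/- crypt array 4, where 5.17% of all were called. For Ain76A 6.22% of all were called without wild-type villus array 3 (1 member) and 16.5% without wild-type crypt array 1 (3 members).

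Deposited scaling moved the share of higher calls among all probe sets called from 42.2% to 53.5% for wild-type crypts against villi, 55.8% to 68.5% on NWD2, 64.0% to 38.4% for p21-/- crypts, 64.0% to 84.4% for NWD2 crypts, 58.2% to 45.8% for Ain76A crypts against wild type, and, for interactions, 65.9% to 27.5% in p21-/- and 51.5% to 35.2% for Ain76A, and from 3 of 5 to 3 of 3 calls in p21-/- villi. The median of all probe sets shifted by 0.16 for wild-type crypts against villi, -0.15 for p21-/- crypts, and -0.15, -0.22 and -0.14 for the interactions of Apc1638N/+, p21-/- and Ain76A.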
